A study of Mus musculus with 7 samples.

Results

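Described here are 9 integrin subunits in lung cDC1, the conventional dendritic cells of type 1, and Mfge8, which encodes a secreted protein that bridges dying cells to integrins. They were taken by symbol from the platform annotation, CD103 with its partner, the β2 integrins, the αv integrins and MFGE8, and make up 10 of the 25428 probe sets of the deposited table. The table holds robust multiarray average (RMA) values on the log2 scale from Mouse Gene 2.0 ST arrays, 1 probe set for each Entrez gene. Linear expression below is 2 to the power of these values.

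All mice were C57/BL6. The control group, nLung, has 4 arrays of cDC1 from healthy lungs. According to the paper, control mice were injected with PBS. The KP(l) group has 3 arrays of cDC1 from lungs harvested 28 days after 100000 KP cells were given into the tail vein. KP is a single transplantable line from primary lung tumors, so tumors were seeded by injection and did not arise in place. Lungs of 2 to 3 mice were pooled for every array. The sources used here give neither age nor sex. Beads against CD11c enriched the cells, which were then sorted on SiglecF, MHC class II, CD11c, CD103 and CD11b. In its figure legends the paper gates cDC1 as positive for CD11c, high for MHC class II and negative for SiglecF and CD11b. Itgax, Itgae and Itgam encode 3 of the antigens used for the sort. The gate itself therefore sets which levels of their proteins a sorted cell could have.

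Correlation over all probe sets, which are no independent replicates, lay between 0.947 and 0.978 (Pearson's r) for arrays of 1 group and between 0.942 and 0.976 for arrays of both. Earlier work on these arrays divided them into a set of 4, replicates 1 and 2 of both groups, and a set of 3, the remaining arrays, which differ in the upper quartile of their values (5.11 to 5.17 against 5.22 to 5.28 on the log2 scale). Nothing in the labels names these sets, and fold changes of the 10 genes are therefore also shown within each. For other genes they are given within the sets only in part. All 12 cDC1 markers, among them Xcr1, Clec9a and Irf8, lay above the median probe set mean, with a median log2 difference of -0.12 between KP(l) and nLung, and 2, Clec9a and Cd207, had a lower level at an unadjusted p under 0.05. Of all probe sets 2.24% were lower at that p. Markers of other cells stood out on some arrays. The summed linear level of 11 alveolar macrophage markers ran from 218 to 1583 in nLung and from 412 to 2039 in KP(l). Their median log2 difference was 1.05, or 1.03 within replicates 1 and 2 and 0.0038 within the other arrays, and 9 of the 11 were above 0. The sum of 6 neutrophil markers was 1544 in KP(l) replicate 1 and at most 61.4 on every other array. S100a8 and S100a9 carried it, and the other 4 summed to 54.5 on that array and to 30.1 to 34.0 elsewhere. Of 10 T cell markers, Cd8b1 stood at 218 in the same array and at 11.1 to 17.5 elsewhere, while the sum of the remaining 9 was 89.1 there, inside the 75.7 to 107 of the other arrays.

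An integrin is a pair of an α and a β subunit that spans the membrane. It joins ligands outside the cell to the actin cytoskeleton inside, and many integrins must be switched from a bent to an extended form before they bind firmly. CD103 (αE, encoded by Itgae) pairs with β7 and binds E-cadherin on epithelial cells, which is the feature by which lung cDC1 have long been recognised. The β2 integrins of leukocytes, LFA-1 (αLβ2), Mac-1 (αMβ2, CD11b) and CD11c/CD18 (αXβ2), bind ICAMs and complement fragments. The αv integrins αvβ5 and αvβ8 take part in the uptake of dying cells and in the release of active TGF-β from its latent complex, respectively. MFGE8 binds phosphatidylserine on dying cells with one end and αv integrins with the other.

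Promoter sequences, from 250 bases before to 50 bases after a start of transcription, were found in RefSeq (GRCm38.p6) for 7 of the 10 genes. The windows of Itgb7 and Itgav lie inside the annotated genes, which have their upstream ends at chr15:102233405 and chr2:83722303. For these 2 genes the start used is therefore not the outermost. Those of Itgb7, Itgb8 and Mfge8, whose group means differed most among these 7, are shown together with that of Itgam, the gene of a marker on which the cells were sorted. Capitals mark GAGGAA or its reverse complement TTCCTC, the core bound by the myeloid transcription factor PU.1.
Itgb7, chr15:102231886-102232185, minus strand: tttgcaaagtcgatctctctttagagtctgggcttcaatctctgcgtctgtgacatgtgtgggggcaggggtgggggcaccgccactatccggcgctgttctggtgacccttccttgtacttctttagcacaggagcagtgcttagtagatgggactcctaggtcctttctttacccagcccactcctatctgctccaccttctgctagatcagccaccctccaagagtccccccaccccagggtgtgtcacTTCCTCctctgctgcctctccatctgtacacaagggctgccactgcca
Itgb8, chr12:119238227-119238526, minus strand: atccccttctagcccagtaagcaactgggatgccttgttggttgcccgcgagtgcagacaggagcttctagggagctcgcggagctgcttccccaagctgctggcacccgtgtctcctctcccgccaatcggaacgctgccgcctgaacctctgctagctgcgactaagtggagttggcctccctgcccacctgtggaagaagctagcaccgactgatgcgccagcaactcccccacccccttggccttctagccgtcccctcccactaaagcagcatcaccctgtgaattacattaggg
Mfge8, chr7:79149011-79149310, minus strand: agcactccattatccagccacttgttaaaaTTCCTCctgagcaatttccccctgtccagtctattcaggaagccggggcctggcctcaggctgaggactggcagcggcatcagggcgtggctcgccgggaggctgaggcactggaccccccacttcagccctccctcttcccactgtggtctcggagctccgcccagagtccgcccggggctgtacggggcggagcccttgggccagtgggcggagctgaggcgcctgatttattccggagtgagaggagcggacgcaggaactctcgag
Itgam, chr7:128062390-128062689, plus strand: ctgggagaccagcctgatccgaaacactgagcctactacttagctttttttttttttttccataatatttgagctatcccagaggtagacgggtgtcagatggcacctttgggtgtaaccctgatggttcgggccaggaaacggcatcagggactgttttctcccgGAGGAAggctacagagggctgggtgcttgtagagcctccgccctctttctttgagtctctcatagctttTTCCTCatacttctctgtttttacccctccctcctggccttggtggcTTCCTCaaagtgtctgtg
The core was found 3 times in the window of Itgam, 2 times in that of Itgav, 1 time each in those of Itgb7 and Mfge8 and 0 times in those of Itgax, Itgb5 and Itgb8. Of all 32851 RefSeq promoters of this length, 28.3% hold it on either strand. A STAT-type site, TTCNNNGAA, on either strand is in 8.3% of all promoters, and the core of the interferon-stimulated response element in 3.44%. Neither was found in any of the 7 windows. Such matches describe the letters only and do not show that a factor binds.

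The groups were compared in limma with Benjamini-Hochberg adjustment over the whole table. To be called, a gene needed at most 0.05 as its adjusted p and at least a 2-fold difference between the group means. None of the 10 members was called, and 0% of all probe sets were. At an unadjusted p under 0.05 there were 4 members, Itgae and Mfge8 higher in KP(l) and Itgb7 and Itgal lower, where 4.86% of all probe sets passed, 2.62% higher and 2.24% lower. All 10 members had a mean above the median probe set mean, and among such probe sets the share was 7.32%. For 4 members no value of 1 group lay within the range of the other, Itgae above nLung and Itgb7, Itgal and Itgb8 below it, and this held for 3.84% of all probe sets, 2.12% above and 1.72% below. The genes were chosen with earlier results known, so these shares stand as a description. In bulk RNA, fewer cells of a type and less RNA per cell cannot be told apart.

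**Figure D1:**
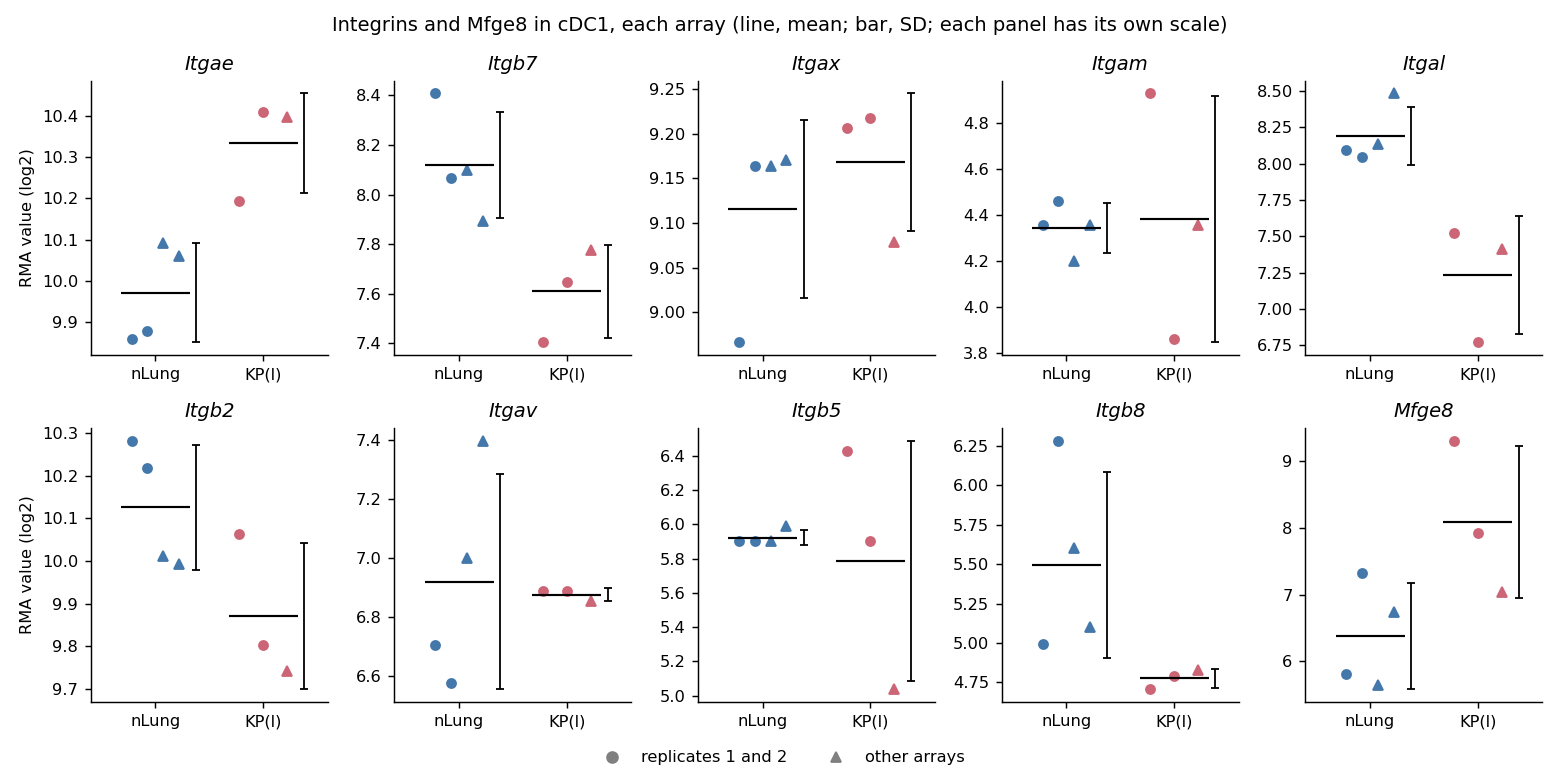
RMA values (log2) of the 10 genes on each array, nLung in blue and KP(l) in red, with the mean as a line and the SD as a bar; circles are replicates 1 and 2 and triangles the other arrays. KP(l) arrays lie above all nLung arrays for Itgae and below them for Itgb7, Itgal and Itgb8, while the 4 nLung arrays of Itgb8 spread from 31.8 to 78.0 in linear expression.

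The genes of CD103 and of its partner lay in opposite directions, neither past the adjusted threshold. Itgae, the αE subunit, had linear expression of 928, 940.1, 1091 and 1067 in nLung replicates 1 to 4, and of 1172, 1361 and 1349 in KP(l) replicates 1 to 3. The groups did not overlap, with all of KP(l) on the upper side. The means were 1006 ± 84.3 (SD, n = 4) and 1294 ± 106 (SD, n = 3), respectively. On the log2 scale the difference was 0.36 (standard error 0.11, 95% interval 0.11 to 0.61), a 1.29-fold higher level in KP(l), with an adjusted p of 0.912 from limma. It measured 0.44 within replicates 1 and 2 and 0.32 within the other arrays, and leaving out any 1 array kept it between 0.32 and 0.43. Cells were selected on CD103 protein in both groups, which limits what a difference in Itgae can describe.

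Itgb7 encodes β7, with which αE must pair to reach the cell surface, and which also pairs with α4. Its linear expression was 340 in nLung replicate 1, 268 in replicate 2, 274 in replicate 3 and 238 in replicate 4, against 169, 200.3 and 219 in the KP(l) replicates. All KP(l) arrays lay below all nLung arrays, though KP(l) replicate 3 came close to nLung replicate 4. The means were 280.1 ± 42.7 (SD, n = 4) and 196 ± 25.2 (SD, n = 3). On the log2 scale they differed by -0.51 (standard error 0.15, 95% interval -0.87 to -0.15, adjusted p = 0.912 from limma). Within replicates 1 and 2 it was -0.71, within the other arrays it was -0.22, and leaving out 1 array gave -0.59 to -0.41.

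Partners of a heterodimer were also compared on each array, as the log2 value of the α subunit minus that of the β subunit, which shows whether the pair shifted by unequal amounts and says nothing of their relative abundance. For Itgae minus Itgb7 this difference was 1.45, 1.81, 1.99 and 2.16 in the nLung replicates and 2.79, 2.76 and 2.62 in the KP(l) replicates. The groups did not overlap, which had to follow from the separate ranges of Itgae and Itgb7 and adds nothing to them. The shift of 0.87 had an exact two-sided permutation p of 0.0286, below which this design cannot go, or 0.0857 when adjusted over the 6 pairs compared. It was 1.15 within replicates 1 and 2 and 0.54 within the other arrays. Over the 7 arrays the log2 values of Itgae and Itgb7 had a Pearson's r of -0.73 (exact permutation p = 0.0625, adjusted over 8 pairs 0.50) and a Spearman's rho of -0.79 (exact permutation p = 0.0480, adjusted p = 0.384). Without the 2 arrays farthest from the median of Itgae, KP(l) replicates 2 and 3, r was -0.83, with KP(l) replicate 1 as the only array of its group. After the mean of each group was taken off, r was -0.06. The r over the 7 arrays thus mainly reflects the opposite group differences, and its permutations did not keep the groups apart. The sets of 4 and 3 arrays are too small for a correlation within them.

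Among the β2 integrins the widest difference was in Itgal, the αL subunit of LFA-1, the integrin with which leukocytes hold ICAM-1 on an opposing cell. Its linear expression was 273, 265, 281 and 358 in the nLung replicates and 184, 109 and 170.2 in the KP(l) replicates. The highest KP(l) array lay well under the lowest nLung array. The means were 294 ± 42.8 (SD, n = 4) and 154 ± 39.6 (SD, n = 3), 1.94-fold lower in KP(l). The log2 difference was -0.96 (standard error 0.21, 95% interval -1.46 to -0.46, adjusted p = 0.912 from limma), and the exact two-sided permutation p for Itgal was 0.0286. It was alike in both sets of arrays, with -0.93 within replicates 1 and 2 and -0.90 within the other arrays, and a range of -1.10 to -0.73 when any 1 array was left out.

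Itgb2 encodes β2, the partner of αL, αM and αX. Its linear expression was 1245, 1190, 1032 and 1018 in the nLung replicates and 1071, 894 and 857 in the KP(l) replicates. KP(l) replicate 1 lay above nLung replicates 3 and 4, so the groups overlapped. Their log2 difference was -0.26 (standard error 0.12, 95% interval -0.55 to 0.04, adjusted p = 0.912 from limma). Within replicates 1 and 2 the difference was -0.32 and within the other arrays -0.26. In the main limma fit, without a block, Itgb2 had an unadjusted p of 0.0805. With these 2 sets, which no label names, as a block in limma, Itgb2 had a log2 fold change of -0.29 and an unadjusted p of 0.0249. The sets were chosen with earlier results of these data known, so this p is a description. That block also lowered the unadjusted p of Itgae and Itgb5, to 0.00619 and 0.491. It raised that of every other member, to 0.0217 for Itgb7, 0.0715 for Itgb8 and 0.0402 for Mfge8.

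For LFA-1 the α subunit differed more than the β subunit, a shift that did not pass adjustment over the pairs. Itgal minus Itgb2 was -2.19, -2.17, -1.87 and -1.51 in the nLung replicates and -2.54, -3.03 and -2.33 in the KP(l) replicates, without overlap. The shift was -0.70 (exact two-sided permutation p = 0.0286, adjusted p = 0.0857 over the 6 pairs), with -0.61 within replicates 1 and 2 and -0.64 within the other arrays. Itgax minus Itgb2 shifted by 0.31 (exact permutation p = 0.171, adjusted p = 0.343) and Itgam minus Itgb2 by 0.29 (exact permutation p = 0.286, adjusted p = 0.343). The latter was 0.12 if KP(l) replicate 1 was left out and 0.52 if KP(l) replicate 2 was.

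**Figure D2:**
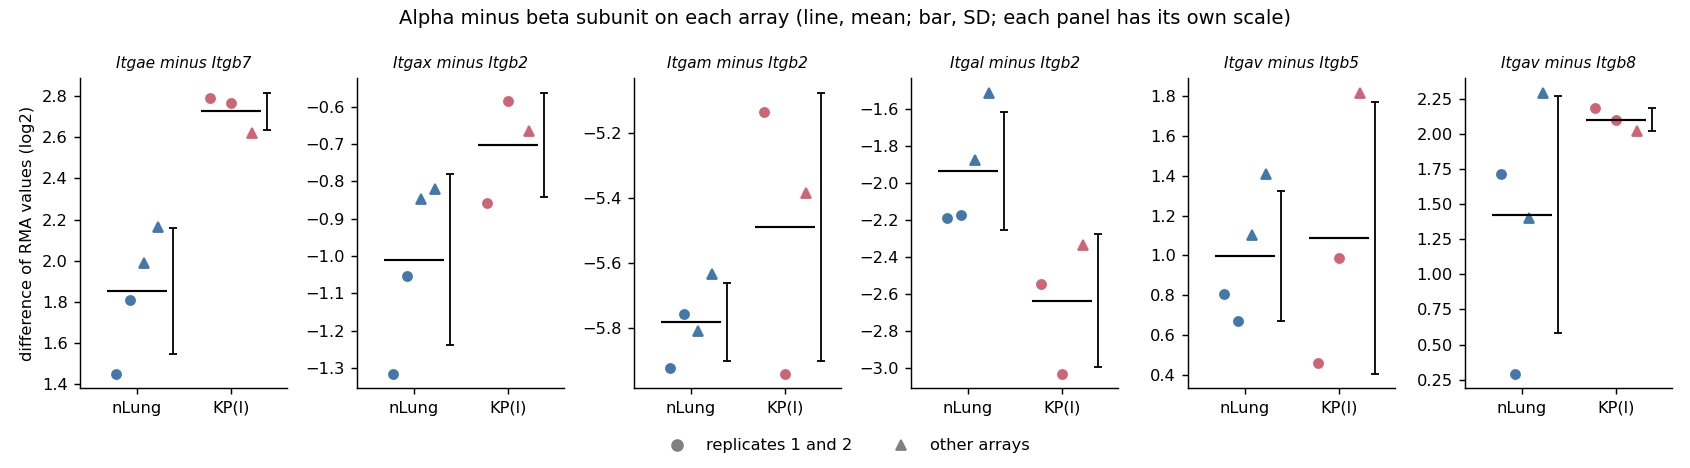
Log2 value of the α subunit minus that of the β subunit on each array for 6 heterodimers, nLung in blue and KP(l) in red, with mean and SD. The KP(l) arrays stand apart for Itgae minus Itgb7, at 2.62 to 2.79 above 1.45 to 2.16 in nLung, and for Itgal minus Itgb2, at -3.03 to -2.33 below -2.19 to -1.51.

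Itgax and Itgam, which encode CD11c and CD11b and lie side by side in the mouse genome, differed little between the group means. Itgax had linear expression of 500.2, 573, 573 and 576 in the nLung replicates and 591, 596 and 541 in the KP(l) replicates. KP(l) replicate 3 lay between the nLung arrays, nLung replicate 1 was the lowest of all 7, and nLung replicates 2 and 3 held the same value. The log2 fold change was 0.05 (standard error 0.09), with a 95% interval of -0.17 to 0.27, so that on these arrays a difference of 1.5-fold in either direction lies outside the interval. It measured 0.15 within replicates 1 and 2 and -0.09 within the other arrays.

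Itgam stood at 20.5, 22.01, 18.4 and 20.5 in the nLung replicates and 30.4, 14.5 and 20.5 in the KP(l) replicates. The nLung arrays lay close together, whereas KP(l) replicates 1 and 2 were the highest and the lowest of all, and 3 arrays held the same value. Its log2 fold change was 0.04 (standard error 0.24, 95% interval -0.54 to 0.61) and measured -0.23 without KP(l) replicate 1 and 0.30 without KP(l) replicate 2. CD11b was among the sort markers, and the paper gates cDC1 as negative for it. The level of Itgam therefore describes cells that had passed that gate.

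The αv integrins differed less evenly. Itgav, the αv subunit shared by several heterodimers, had linear expression of 104, 95.4, 128 and 169 in the nLung replicates and 119, 118 and 116 in the KP(l) replicates. The KP(l) arrays lay nearly on 1 level, inside the range of nLung. The log2 fold change was -0.04 (standard error 0.20, 95% interval -0.52 to 0.43), with 0.25 within replicates 1 and 2, -0.35 within the other arrays and 0.12 if nLung replicate 4 was left out.

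Itgb5, for the β5 subunit of the vitronectin receptor αvβ5, stood at 59.8 on 4 of the 7 arrays, nLung replicates 1 to 3 and KP(l) replicate 2, to the last digit of the table. The remaining arrays had 63.5 in nLung replicate 4, 86.0 in KP(l) replicate 1 and 32.8 in KP(l) replicate 3. The SD was 1.86 in nLung and 26.6 in KP(l), so the groups had unlike spreads. Its log2 difference was -0.14 (standard error 0.30, 95% interval -0.86 to 0.59) and turned to 0.24 without KP(l) replicate 3. Itgav minus Itgb5 shifted by 0.09 (exact permutation p = 0.857).

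Itgb8 encodes the β8 subunit, with which dendritic cells activate latent TGF-β. Its linear expression was 31.8, 78.0, 48.6 and 34.4 in the nLung replicates and 26.1, 27.6 and 28.4 in the KP(l) replicates. All KP(l) values were under the lowest of nLung, by a small margin for nLung replicates 1 and 4 and a wide one for replicate 2. The means were 48.2 ± 21.2 (SD, n = 4) and 27.4 ± 1.18 (SD, n = 3). Their log2 difference was -0.72 (standard error 0.31, 95% interval -1.46 to 0.02, adjusted p = 0.912 from limma), -0.89 within replicates 1 and 2 and -0.52 within the other arrays. Without nLung replicate 2 it was -0.46. Itgav minus Itgb8 shifted by 0.68 (exact permutation p = 0.257, adjusted p = 0.343). This shift was 1.14 within replicates 1 and 2, 0.18 within the other arrays and 0.30 if nLung replicate 2 was left out.

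Mfge8 had the largest difference of the 10 genes and the largest error. Its linear expression was 55.8, 160, 49.8 and 107 in the nLung replicates and 634, 243 and 132 in the KP(l) replicates. KP(l) replicates 1 and 2 lay above all nLung arrays, while KP(l) replicate 3 lay below nLung replicate 2. The means were 93.0 ± 51.2 (SD, n = 4) and 336 ± 264 (SD, n = 3). Their log2 difference was 1.72 (standard error 0.63, 95% interval 0.20 to 3.23, adjusted p = 0.912 from limma), 3.29-fold higher in KP(l), and the exact two-sided permutation p for Mfge8 was 0.0857. It was 2.06 within replicates 1 and 2 and 0.85 within the other arrays. Without KP(l) replicate 1 it was 1.11, with an unadjusted p of 0.102 in limma, and without nLung replicate 1, nLung replicate 3 or KP(l) replicate 2 the unadjusted p from limma was 0.0778, 0.0775 or 0.0655.

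Epithelial cells, fibroblasts and some macrophages also make MFGE8. KP(l) replicate 1, the array with the highest Mfge8, also had the highest summed levels of the alveolar macrophage and neutrophil markers. KP(l) replicate 2 had the next highest Mfge8 and the next highest sum of alveolar macrophage markers, 1810. On the other hand nLung replicate 1 had a sum of 1583 with Mfge8 at 55.8, and the 8 epithelial markers summed to 2497 on that array and to 221 to 445 in KP(l). Scgb1a1 and Sftpc carried that sum, and the other 6 epithelial markers summed to 207 to 217 in nLung and 158 to 229 in KP(l). Of the 13 monocyte and other macrophage markers 11 had a log2 fold change above 0, with a median of 0.49, or 1.24 within replicates 1 and 2 and -0.0035 within the other arrays. Their sum, 2245 to 2612 in nLung and 2185 to 2591 in KP(l), was mostly Ccr2. Without Ccr2 the other 12 summed to 1002, 498 and 213 in KP(l) replicates 1, 2 and 3, the same order as Mfge8 on these KP(l) arrays. In the nLung replicates they summed to 287, 281, 234 and 248, which is not the order of Mfge8 there. KP(l) replicate 3 had the lowest of these sums, with Mfge8 above that of nLung replicates 1, 3 and 4. C1qb, a macrophage complement gene, stood at 277 and 128 in KP(l) replicates 1 and 2 and at 19.1 to 34.4 on the other arrays. The part of these cells in the level of Mfge8 was not tested.

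**Figure D3:**
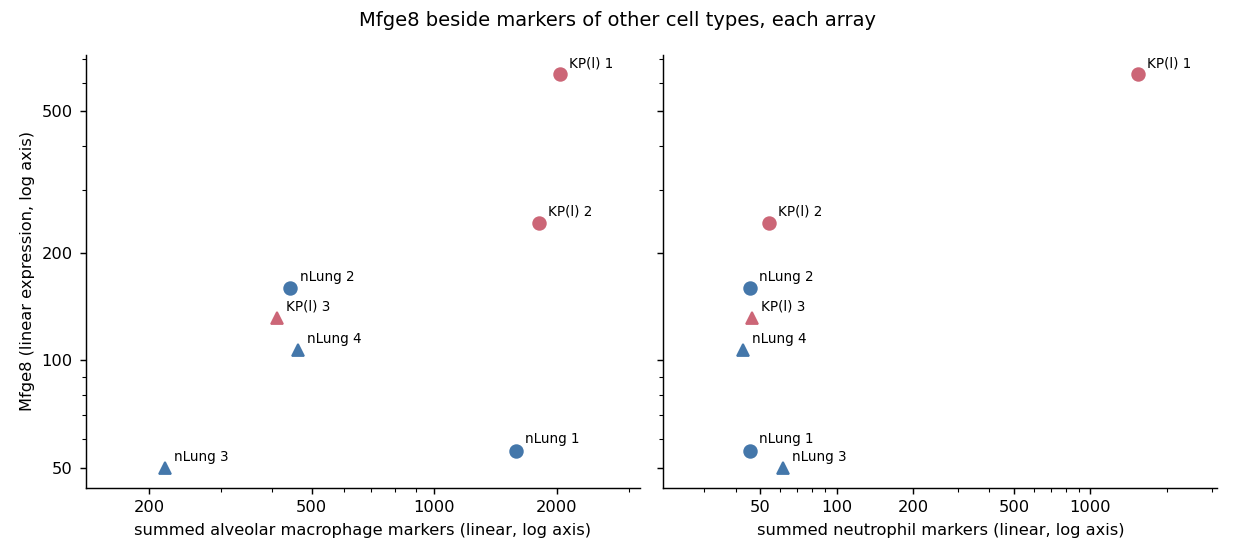
Linear expression of Mfge8 on each array against the summed linear expression of 11 alveolar macrophage markers (left) and 6 neutrophil markers (right), all axes logarithmic, nLung in blue and KP(l) in red. KP(l) replicate 1 is highest on every axis, and nLung replicate 1 joins a high macrophage sum of 1583 to a low Mfge8 of 55.8.

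No correlation of Mfge8 with the αv integrin genes passed its test. Its Pearson's r over the 7 arrays was -0.09 with Itgav (exact permutation p = 0.844) and 0.38 with Itgb5 (exact permutation p = 0.395), with Spearman's rho of -0.18 (p = 0.713) and 0.32 (p = 0.533) from the same exact permutations. Without the 2 arrays farthest from the median of Mfge8 these r were -0.02 and -0.07, and after the mean of each group was taken off they were -0.04 and 0.75. Itgb5 held the same value on 4 of the 7 arrays, with KP(l) replicates 1 and 3 far from it (86.0 and 32.8). The 0.75 rests mainly on those KP(l) arrays and was not tested. No correlation of the 8 pairs passed after adjustment, with 0.384 as the smallest adjusted p. The remaining pairs had r from -0.38 for Itgax with Itgb2 to 0.61 for Itgal with Itgb2.

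**Figure D4:**
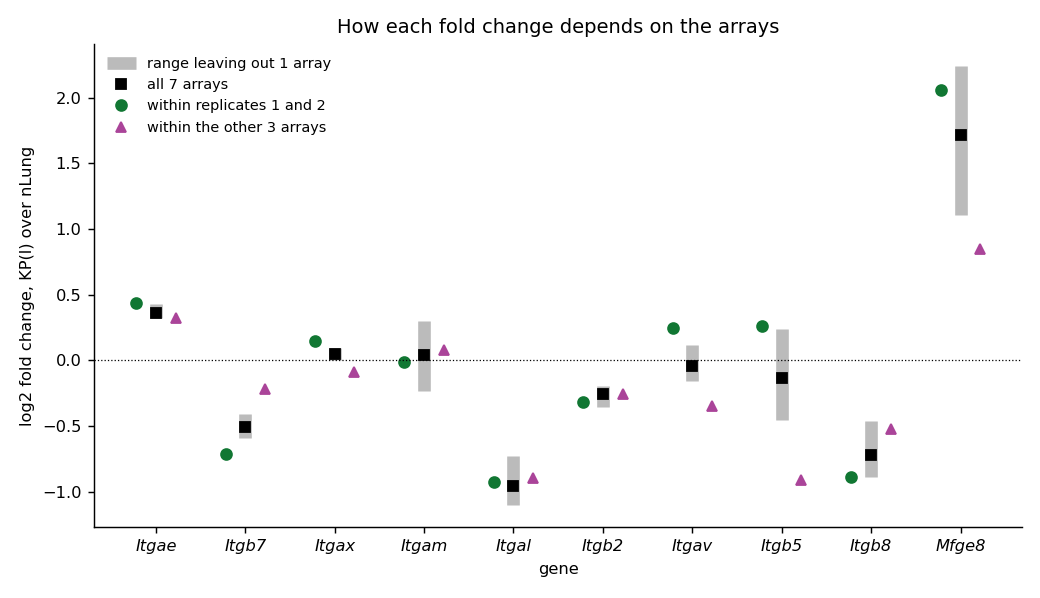
Log2 fold change of KP(l) over nLung for each gene with all 7 arrays (square), within replicates 1 and 2 (circle), within the other 3 arrays (triangle) and as the range when 1 array is left out (grey bar). Itgae, Itgb7, Itgal, Itgb2, Itgb8 and Mfge8 keep their sign throughout, while Itgam, Itgav and Itgb5 cross 0 and Itgax differs in sign between the sets.

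The remaining integrin subunits were measured by 17 probe sets. None was called, and an unadjusted p under 0.05 went with 1 higher and 1 lower gene, where 4.86% of all probe sets had one. Their median log2 fold change was -0.01, where that of all probe sets was 0.02. Itga6, the laminin-binding α6 subunit, was the higher gene, at 8.29 ± 1.25 in nLung and 14.3 ± 4.25 in KP(l), which differ by 0.76 on the log2 scale (standard error 0.23). It had a mean below the median probe set mean. Itga1, whose α1 subunit binds collagen with β1, was the lower gene, at 65.7 ± 15.6 and 38.8 ± 11.8, a difference of -0.78 (standard error 0.28) that was -0.50 without KP(l) replicate 1. For both the adjusted p from limma was 0.912. Itgb1, the β1 partner of α1, lay at -0.01 (95% interval -0.19 to 0.16). This gene was picked once its values were known.

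**Figure D5:**
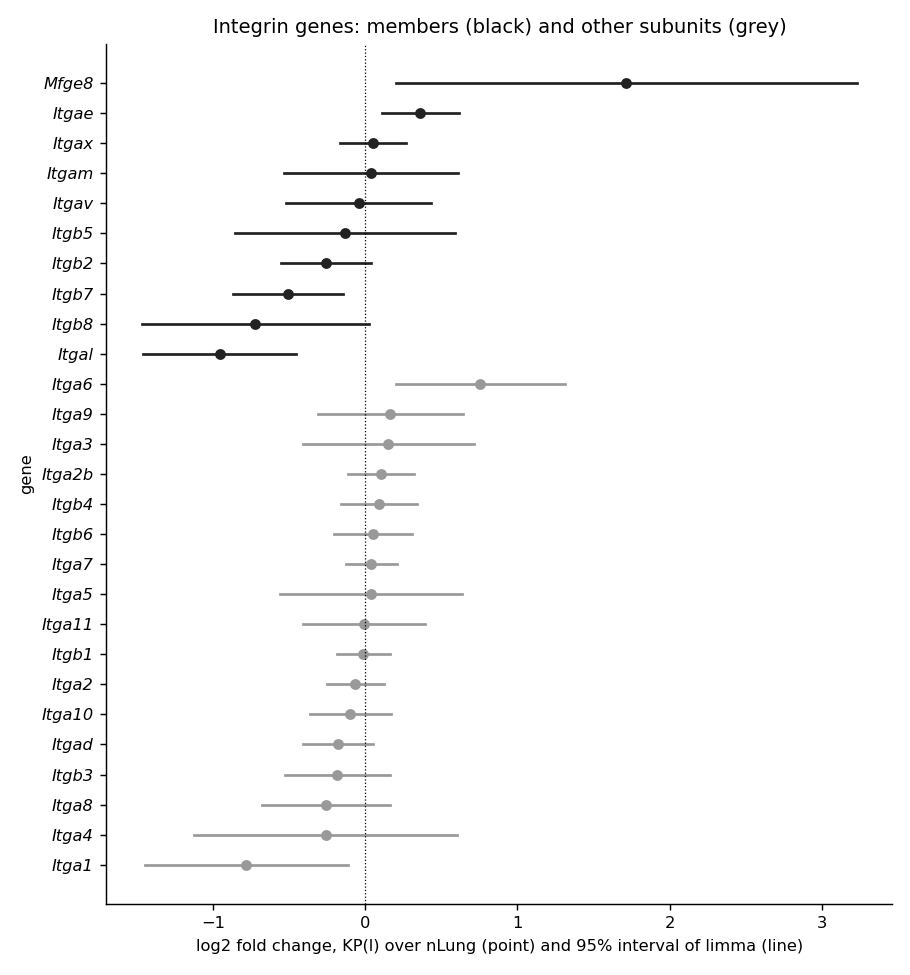
Log2 fold change of KP(l) over nLung with its 95% interval from limma for the 10 genes described (black) and for the 17 other integrin subunits (grey). The intervals of Mfge8, Itgae, Itgb7, Itgal, Itga6 and Itga1 leave out 0, and Mfge8 has the widest, from 0.20 to 3.23.

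Ligands of these integrins were read from 20 genes. None was called. With an unadjusted p under 0.05, 3 were higher and 2 were lower, where 2.62% of all probe sets were higher and 2.24% lower. The median log2 fold change was 0.10. Cdh1 encodes E-cadherin, the ligand of CD103, which dendritic cells can also make. It stood at 28.1, 34.98, 27.3 and 27.8 in the nLung replicates and at 40.4, 35.6 and 47.5 in the KP(l) replicates. The KP(l) arrays lay above all nLung arrays, KP(l) replicate 2 only just. Its log2 difference was 0.48 (standard error 0.14, adjusted p = 0.912 from limma). Spp1, for osteopontin, an αv ligand, had a log2 difference of 0.61 (standard error 0.20) that was 0.41 without KP(l) replicate 1. Within replicates 1 and 2 the Spp1 difference was 0.80, and within the other arrays it was 0.21. Nrros, which encodes a protein that holds latent TGF-β on myeloid cells, averaged 231 ± 42.5 in nLung against 151 ± 24.0 in KP(l), -0.61 on the log2 scale (standard error 0.19). F11r, the gene of JAM-A, to which LFA-1 can bind, had -0.84 (standard error 0.33). The remaining higher gene was Fn1, for fibronectin, at 331, 114 and 10.3 in the KP(l) replicates and 7.60 to 14.9 in nLung. Its log2 difference was 2.73 (standard error 1.10, adjusted p = 0.912 from limma), 3.79 within replicates 1 and 2 and 0.25 within the other arrays. Fn1 was picked once its values were known.

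Genes of integrin activation and of its adaptors, 33 in number, include talin, kindlin and the kinases that act behind the receptor. Not 1 was called. An unadjusted p under 0.05 went with 1 higher and 1 lower gene, and the median log2 fold change was 0.00. That p was reached by 4.86% of all probe sets and by 7.32% of those above the median mean, as 28 of these genes were. The higher gene was Fyb, which encodes the adaptor ADAP that links immune receptors to integrin activation, at 46.1 ± 8.04 in nLung and 75.3 ± 20.4 in KP(l), 0.69 higher on the log2 scale (standard error 0.22). The lower was Lyn, a Src family kinase, at 520 ± 28.8 and 433 ± 34.5, a log2 difference of -0.27 (standard error 0.09).

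Behind αvβ5, uptake of dying cells runs through CRK proteins, DOCK1 and ELMO to the GTPase RAC1. Of 9 genes of this route 0 were higher and 1, Crkl, was lower at an unadjusted p under 0.05. The share of all probe sets was 2.62% higher and 2.24% lower. The median log2 fold change of the route was -0.04. Crkl, an adaptor of the CRK family, stood at 138, 61.6, 91.8 and 77.1 in the nLung replicates and at 38.3, 21.8 and 60.5 in the KP(l) replicates, with KP(l) replicate 3 just below nLung replicate 2. Its log2 fold change was -1.25 (standard error 0.41, adjusted p = 0.912 from limma), or -1.68 and -0.48 within the 2 sets of arrays. Rac1 lay at 0.11 (95% interval -0.31 to 0.52) and Rhog at -0.04 (95% interval -0.43 to 0.35).

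TGF-β keeps CD103 expressed on leukocytes, through SMAD proteins and RUNX3. Of 11 genes of this input and of latent TGF-β, 0 were higher and 1, Smad2, was lower at an unadjusted p under 0.05. The share of all probe sets was 2.62% higher and 2.24% lower. The median log2 fold change of the 11 genes was 0.05. Smad2, a signal carrier of the TGF-β receptor, had a log2 difference of -0.42 (standard error 0.16), with -0.65 within replicates 1 and 2 and -0.02 within the other arrays. If KP(l) replicate 2 was left out it was -0.27. Runx3 lay at -0.01 (95% interval -0.23 to 0.21). Smad7, an inhibitor induced by TGF-β, lay at 0.62 (95% interval -0.17 to 1.41), with 1.21 within replicates 1 and 2 and -0.25 within the other arrays.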

How the data were processed

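cDC1 of 4 nLung and 3 KP(l) pools were profiled on Mouse Gene 2.0 ST arrays. Per the labels RNA was amplified with a NuGEN protocol, while the methods name the Affymetrix 3'IVT protocol. The deposited log2 values were made by the authors with RMA (background correction, quantile normalization, median polish) using affy (Bioconductor 3.5, R 3.4.2) and a BrainArray definition file (22.0.0) built on Entrez genes. RMA draws on several probes per gene and can return 1 value on several arrays. Of 25428 probe sets, 24705 were named from the platform table and 564 by Entrez gene in RefSeq, while 159 have no name. No filter was applied.

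limma 3.58.1 (R 4.3.3, lmFit and eBayes) compared the groups without a block, with Benjamini-Hochberg adjustment over all probe sets. Exact permutation tests of group means ran over all 35 splits of the 7 arrays. SAM, the study's test, was written anew as an alternative. With its own SAM run the paper reports differentially expressed transcripts between these groups, at a false discovery rate of up to 5% and a 2-fold change. The rewritten SAM called none, and its lowest false discovery rate was 0.152. The reason for this difference was not tested. The code was tested on simulated data. The number of arrays limits the precision. Members, lists and the 2 sets of arrays were chosen with earlier results of these data known, so no p was adjusted over a list. The text names all members and, from each of 5 lists, up to 4 genes with the smallest unadjusted p under 0.05 and, where fewer than 2 had one, the 2 with the highest mean. Any other gene was chosen after its values were seen. Of the 12 alveolar macrophage and 14 monocyte and macrophage markers listed, 11 and 13 were measured. Lists of cDC2 (8 measured, and with an unadjusted p under 0.05 2 higher and 2 lower), mature DC (11, with 0 and 1), NK cell (6, with 0 and 0), B cell and plasmacytoid DC (7, with 2 and 1) and endothelial and stromal markers (9, with 0 and 1) were also read. Over all probe sets 2.62% were higher and 2.24% lower at that p. The marker sums without the genes that carried them were added after seeing the data. Plots used matplotlib 3.10.9 (Python 3.11.15). Alternatives are given in the closing section.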

Additional observations from a re-analysis of the deposited data

Results flagged for a closer look

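In the 4 nLung arrays of Itgax, replicate 1 lay far from the rest, at 8.97 on the log2 scale against 9.16 to 9.17, so that the gap made up 0.967 of the whole range, past the 95% limit of Dixon's test for 4 values. In those of Itgb5, replicate 4 lay at 5.99 and the other 3 arrays at 5.90 exactly, so that the gap was the whole range (a ratio of 1). With 3 equal values this ratio is 1 however small the gap. Chance gives a gap past the limit in about 1 in 20 groups of untied values, a rate that does not hold for Itgb5. For Itgax, nLung replicates 2 and 3 are tied as well. The nLung arrays of all 10 genes were examined.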

How the results depend on the processing

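Across eBayes with an intensity trend, array weights, a further quantile normalization, each array centred on its median, only probe sets above the median mean, the replicate block, the 2 sets of arrays as a block, each array left out, SAM and fold thresholds of 1.5 or none, 0 probe sets were called. The count at an unadjusted p under 0.05 was 1236 with all arrays and probe sets, 785 among those above the median mean, and 970 to 1815 when an array was left out. In limma 3 to 6 members had an unadjusted p under 0.05 in each of these settings, Itgae, Itgb7 and Itgal always among them, and Itgb2 and Itgb8 added on centring (0.0437 and 0.0477). Deviations from the group means correlated at 0.08, 0.02 and 0.19 for same-numbered arrays and at -0.12 to 0.12 for differently numbered ones. So few arrays cannot decide whether replicate numbers pair them. In the replicate block Mfge8 had a log2 fold change of 1.84 with an unadjusted p of 0.0520, Itgb8 -0.85 with 0.0423, and the number of members with an unadjusted p under 0.05 was 4. Of 224 alternative values of members and partner shifts 14 changed sign. They belong to Itgam at -0.021 with array weights, -0.015 within replicates 1 and 2, and -0.23 to 0.30 leaving out each array, Itgav at 0.12 in the replicate block, 0.0096 with the sets as a block, 0.25 within replicates 1 and 2 and -0.16 to 0.12 leaving out each array, Itgb5 at 0.26 within replicates 1 and 2 and -0.45 to 0.24 leaving out each array, Itgax at -0.088 within the other arrays, and Itgav minus Itgb5 at -0.015 within replicates 1 and 2 and -0.27 to 0.40 leaving out each array. Of 70 alternative values of list medians 18 changed sign, in 4 of the 5 lists (not the ligands), and these lay between -0.036 and 0.089. The cause was not tested. With 1 array left out the exact tests allow no p below 0.0667 or 0.1.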
